A study of Mus musculus with 32 samples.

Results

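Schlafen genes were examined in RNA of the vomeronasal organ (VNO) neuroepithelium, the sensory sheet with which mice detect pheromones. The 7 genes were Slfn1, Slfn2, Slfn3, Slfn4, Slfn5, Slfn8 and Slfn9, chosen by gene name from the 49671 genes listed in the count tables. The tables held 32 libraries, each from 1 mouse of 42 days, with 4 males and 4 females of each of 4 untreated inbred strains. The strains were 129S6/SVEV (129), C57/BL6 (B6), SJL/J (SJL) and SWR/J (SWR), each of which carries a single genetic background, so that a difference between strains cannot be tied to 1 locus. Total RNA was depleted of ribosomal RNA and sequenced with strand kept. Expression is given as the deposited normalized count, in which the reads on a gene are divided by the size factor of the library. TPM, a level per transcript length, is used where genes are set against each other.

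Schlafen genes are mammalian genes expressed mainly in cells of the immune system, and many of them are induced by type I interferon. Mouse members differ in length. Slfn1 and Slfn2 encode short proteins with the conserved Schlafen core, Slfn3 and Slfn4 encode intermediate ones, and Slfn5, Slfn8 and Slfn9 encode long ones that also carry a helicase-like domain. In a neuroepithelium, which also holds resident macrophages, blood vessels and supporting tissue, bulk RNA does not show which cells carry the transcripts, and fewer cells of a type cannot be told apart from less RNA per cell.

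All 7 genes lay within 264 kb of chromosome 11 (82951349 to 83215154, GRCm38). Slfn5 (82951349 to 82964840), Slfn2 (83065112 to 83070678), Slfn1 (83116849 to 83122670), Slfn4 (83175186 to 83190216) and Slfn3 (83191330 to 83215154) were on the plus strand. Slfn9 (82978390 to 82991830) and Slfn8 (83002158 to 83020810) lay between Slfn5 and Slfn2 on the minus strand. All are annotated as protein coding, and the longest coding sequences measured 1011 bases for Slfn1, 1134 for Slfn2, 1920 for Slfn3, 1806 for Slfn4, 2652 for Slfn5 and 2730 for each of Slfn8 and Slfn9. Of the 21 pairs of coding sequences, 2 were over 80% identical when aligned along their whole length. Slfn8 and Slfn9 shared 92.7% of bases and Slfn3 and Slfn4 shared 91.2% of the shorter sequence, while the other 19 pairs lay between 51.0% and 72.2%.

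The bases before the start sites of Slfn8 and Slfn9 are shown because these neighbours, which are close copies, had unlike differences among strains. Capitals mark a match to the core of the interferon-stimulated response element, GAAA repeated after a gap of 2 bases, searched on both strands. The sequences are those of RefSeq (GRCm38.p6), 250 bases before each start, written in the direction of transcription (minus strand), at chr11:83020811-83021060 for Slfn8 and chr11:82991831-82992080 for Slfn9.
Slfn8: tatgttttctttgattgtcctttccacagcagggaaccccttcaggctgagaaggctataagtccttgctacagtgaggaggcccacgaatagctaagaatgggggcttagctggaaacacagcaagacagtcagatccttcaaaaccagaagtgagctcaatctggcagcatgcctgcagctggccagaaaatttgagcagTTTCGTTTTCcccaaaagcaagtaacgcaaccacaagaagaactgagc
Slfn9: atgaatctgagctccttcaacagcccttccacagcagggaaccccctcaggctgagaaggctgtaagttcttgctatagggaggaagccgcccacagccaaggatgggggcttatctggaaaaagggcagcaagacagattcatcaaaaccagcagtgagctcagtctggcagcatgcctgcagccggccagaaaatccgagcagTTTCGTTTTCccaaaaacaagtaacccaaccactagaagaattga
The stretches were identical at 81.6% of 250 positions, and the match was the same in both, 48 to 39 bases before the start of Slfn8 and 45 to 36 bases before that of Slfn9. RefSeq holds a second start for Slfn8, from which the same match lies 136 to 127 bases away. The only other match in the family was that of Slfn5, 155 to 146 bases before its RefSeq start on the plus strand (chr11:82951937-82951966). This start follows base 82952101 and so lies inside the gene span given above, which comes from GENCODE, and the match ran into a row of A.
Slfn5: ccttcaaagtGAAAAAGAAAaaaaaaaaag
Matches were thus found before 3 of 7 genes, against 2.98% of the 32536 distinct promoter stretches of the same length in the mouse. The close copies Slfn8 and Slfn9 hold the same match, so that the 3 genes are not separate cases. The share is also counted per stretch, and Slfn8 had 2 stretches. The letters of the other interferon motif searched, the gamma-activated site TTCNNNGAA, were found before 0 of the 7 genes and in 7.04% of all stretches. Slfn1, Slfn2, Slfn3 and Slfn4 held neither set of letters in this window. The reference sequence is that of B6, and the sequences of the other strains were not used here.

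Reads on genes ranged from 5106398 to 18640871 per library, with a median of 11461344. The summed normalized count of markers of mature vomeronasal sensory neurons lay between 34469 and 51751 in every library. Trpc2, a defining marker, was nevertheless listed at 0 in all of them. Its gene overlaps Xntrpc, and why it had no reads was not tested. In a principal components analysis, strain accounted for 96.5 to 99.5% of the scores of the first 3 components. The fourth, with 7.07% of the variance and 1.38% of its scores accounted for by strain, set apart B6 female replicate 1 and 129 male replicate 1. Reads on gene families of other tissues, a measure of background, had a median of 0.452 RPM (reads scaled to the library) in 129 and 4.09 in B6, and SJL (2.82) and SWR (2.11) lay between. As RPKM, which also divides by exon length, the highest background of a 129 library was 0.00642, whereas the lowest value of a Schlafen gene in 129 was 0.0281 (Slfn3). In B6 the highest background (0.126, female replicate 2) exceeded the lowest value of Slfn3 (0.0822, male replicate 2), but these were different libraries. The background of B6 male replicate 2 was 0.0287, below its value of Slfn3.

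Every Schlafen gene had a read in each of the 32 libraries, and all 7 passed the filter on low counts that left 18382 genes for testing. By mean TPM, Slfn2 was the most abundant member in each strain, with 25.3 ± 2.76 in B6, 11.5 ± 2.08 in SJL, 11.2 ± 1.98 in SWR and 6.69 ± 1.51 in 129 (SD, n = 8). It held 43.6 to 53.1% of the TPM of the family, as the mean of a strain. Slfn4 came next (9.20 ± 4.30 TPM in B6 and 2.73 ± 1.75 in 129) and Slfn5 after it (4.28 ± 0.994 in B6 and 1.67 ± 0.717 in 129). Slfn1, Slfn8 and Slfn9 followed, in an order that changed with the strain, and Slfn3 was the lowest throughout, at 0.599 ± 0.242 TPM in B6 and 0.142 ± 0.0774 in 129. Among all tested genes these were modest levels: 59.8% of them had a lower mean TPM than Slfn2, 37.1% a lower one than Slfn4 and 2.4% a lower one than Slfn3.

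Taken as a sum, the family members were most abundant in B6 and least abundant in 129. The summed normalized count of the 7 genes was 742 ± 173 in B6, 424 ± 126 in SJL, 414 ± 66.7 in SWR and 228 ± 88.6 in 129 (SD, n = 8). All B6 libraries (586 to 1129) lay above all 129 libraries (135 to 416), whereas SJL (310.3 to 643) and SWR (321 to 495) lay between them and overlapped. Each of the 7 genes had its highest mean in B6 and its lowest in 129, an order that 13.6% of all tested genes showed. The plot of normalized counts per mouse shows these values gene by gene.

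**Figure D1:**
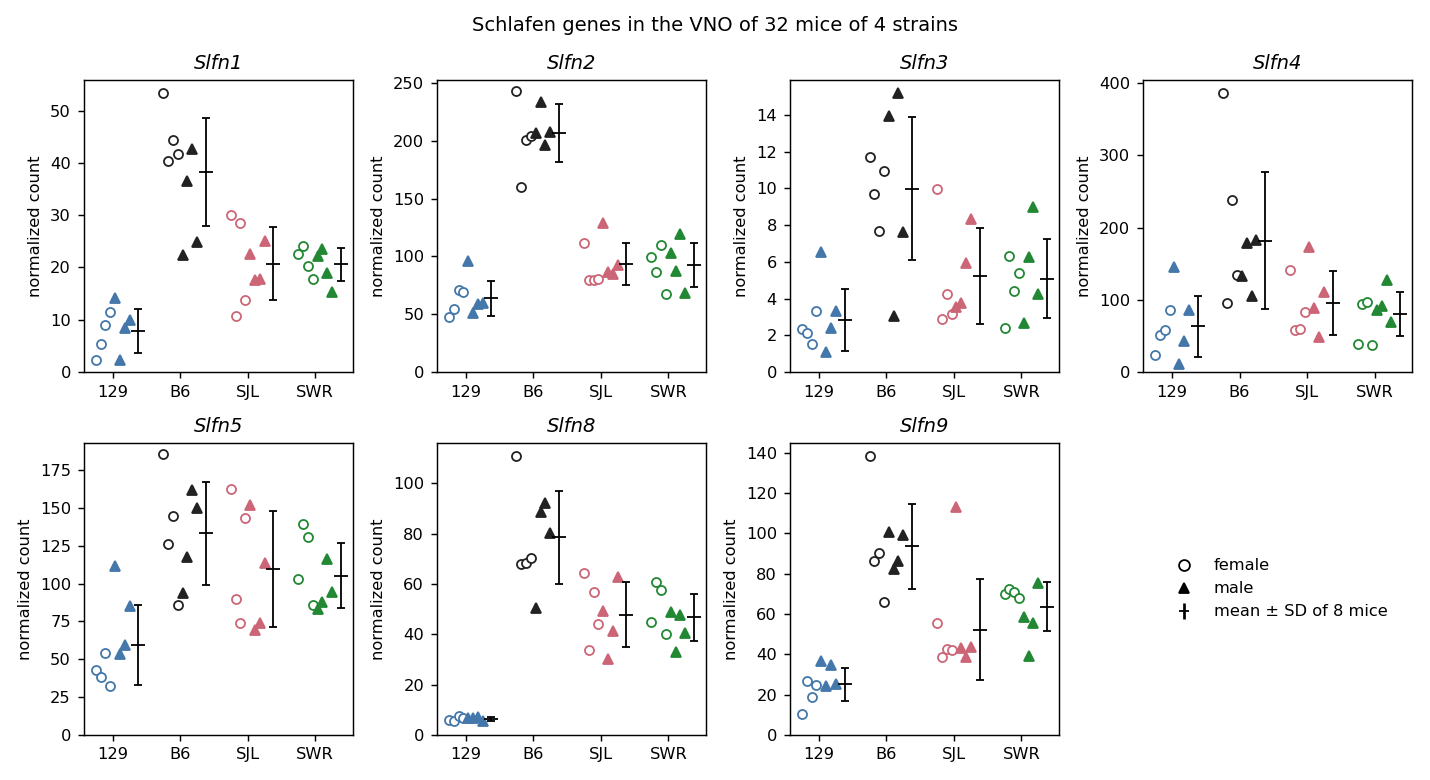
Deposited normalized count (y axis, linear from 0) of each Schlafen gene in 8 mice of each strain (x axis), with open circles for females, filled triangles for males and the mean ± SD of the 8 mice beside them. For Slfn8 the 129 libraries sit between 5.33 and 7.49, and the lowest library of another strain is at 30.03.

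Between B6 and 129, 7 of 7 genes were higher in B6 with FC > 2 and FDR < 0.05, against 8.72% of all genes tested (edgeR). Their LFC, B6 over 129, ranged from 1.18 to 3.60 with a median of 1.76, beside a median of 0.02 over all tested genes. Libraries of B6 lay wholly above those of 129 for 4 genes (Slfn1, Slfn2, Slfn8 and Slfn9), as they did for 6.51% of all tested genes. The smallest difference was that of Slfn5 and the largest that of Slfn8.

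Slfn2, a short member known for its part in keeping T lymphocytes and monocytes quiescent, had normalized counts of 47.7 to 96.4 in 129 (median 59.1), 159.6 to 243 in B6 (205), 79.3 to 129 in SJL (85.5) and 67.1 to 119.6 in SWR (93.3). All B6 mice were above all mice of the other strains, and the other 3 strains overlapped. The LFC of B6 over 129 was 1.69 ± 0.132 (SE, FDR = 8.42e-13). SJL and SWR were below B6 by nearly the same amount, with LFCs of -1.15 ± 0.127 (FDR = 3.29e-09) and -1.17 ± 0.127 (FDR = 2.33e-09). They exceeded 129 by LFCs of 0.54 ± 0.135 and 0.52 ± 0.135, which passed the FDR (0.00174 and 0.00232) but not the limit on FC.

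Slfn1, the other short member, whose forced expression is known to slow the growth of thymocytes, had counts of 2.19 to 14.0 in 129 (median 8.67), 22.4 to 53.3 in B6 (41.0), 10.6 to 29.98 in SJL (20.2) and 15.2 to 24.1 in SWR (21.2). The 129 mice lay below every B6 and SWR mouse and overlapped with SJL. B6 exceeded 129 by an LFC of 2.22 ± 0.256 (FDR = 7.23e-09), SJL exceeded it by 1.34 ± 0.264 (FDR = 0.000106) and SWR by 1.33 ± 0.264 (FDR = 0.00011). Against B6, SJL (LFC = -0.88 ± 0.227, FDR = 0.00188) and SWR (LFC = -0.89 ± 0.227, FDR = 0.00185) were lower by less than a factor of 2.

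Of the intermediate members, Slfn4, which is known from monocytes, macrophages and other myeloid cells, varied widely within strains, with a CV of 38.3% in SWR, 46.2% in SJL, 52.2% in B6 and 67.6% in 129, of which the last 2 were the highest of the family in their strain. Its counts ran from 10.9 to 145 in 129 (median 54.4), from 95.8 to 386 in B6 (156), from 48.3 to 174 in SJL (86.0) and from 37.0 to 128 in SWR (88.4). The highest 129 mouse was thus 13.3 times the lowest, and every pair of strains overlapped. B6 female replicate 1 and 129 male replicate 1, the libraries set apart in the principal components analysis, held the highest Slfn4 of their strains. The LFC of B6 over 129 was 1.53 ± 0.341 (FDR = 0.000324) and was also 1.53 without these libraries. SWR was below B6 by an LFC of -1.22 ± 0.334 (FDR = 0.00365), which passed both limits, but without these libraries the LFC was -0.95. For SJL against B6 the LFC was -0.94 ± 0.328 (FDR = 0.0193), and SJL and SWR gave LFCs of 0.59 ± 0.346 (FDR = 0.183) and 0.31 ± 0.351 (FDR = 0.507) against 129.

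Slfn3, the near copy of Slfn4, had only 1 to 15 reads in a library, so that counting error is a large part of its spread. Its normalized counts were 1.09 to 6.55 in 129 (median 2.35), 3.05 to 15.2 in B6 (10.3), 2.90 to 9.99 in SJL (4.01) and 2.37 to 8.99 in SWR (4.91), and all strains overlapped. B6 exceeded 129 by an LFC of 1.76 ± 0.353 (FDR = 9.37e-05). The LFCs of SJL and SWR over 129 were 0.83 ± 0.377 and 0.81 ± 0.377 and did not pass (FDR = 0.0821 and 0.0846). Against B6 the LFC was -0.93 ± 0.318 for SJL (FDR = 0.0172) and -0.95 ± 0.317 for SWR (FDR = 0.0161).

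Slfn8, a long member with the helicase-like domain, showed the widest gap between strains. It had 5 to 10 reads in a 129 library and 32 or more in every other library. Normalized counts were 5.33 to 7.49 in 129 (median 6.55), 50.3 to 111 in B6 (75.2), 30.03 to 64.5 in SJL (46.8) and 33.0 to 60.9 in SWR (46.3). No 129 mouse overlapped with a mouse of another strain, and the 129 mice differed among themselves by no more than 1.41 times. B6 was 12.1 times as high as 129 (LFC = 3.60 ± 0.195, FDR = 5.34e-17), SJL 7.28 times (LFC = 2.86 ± 0.199, FDR = 5.51e-14) and SWR 7.08 times (LFC = 2.82 ± 0.200, FDR = 7.51e-14). B6 also exceeded SJL and SWR, by less than a factor of 2 (LFC of SJL against B6 = -0.73 ± 0.152, FDR = 0.00018; of SWR against B6 = -0.77 ± 0.152, FDR = 0.000103).

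Slfn9, the close copy of Slfn8 whose gene lies beside it, had counts of 10.5 to 36.5 in 129 (median 25.1), 65.8 to 139 in B6 (88.3), 38.4 to 113 in SJL (42.9) and 39.2 to 75.3 in SWR (68.9). Again no 129 mouse reached a mouse of another strain, but the gap was narrower. LFCs over 129 were 1.91 ± 0.215 for B6 (FDR = 4.81e-09), 1.06 ± 0.219 for SJL (FDR = 0.000197) and 1.33 ± 0.218 for SWR (FDR = 6.11e-06). Against B6 they were -0.85 ± 0.199 for SJL (FDR = 0.000731) and -0.58 ± 0.196 for SWR (FDR = 0.0183), which passed the FDR but not the limit on FC. The interval of 2 SE either side of the B6 over 129 LFC ran from 1.48 to 2.34 for Slfn9 and from 3.21 to 3.99 for Slfn8. Within a library, which needs no scaling, Slfn8 took 21.7 ± 7.04% of the reads on both genes in 129 (SD, n = 8), 42.4 ± 4.51% in SWR, 45.6 ± 6.25% in B6 and 48.9 ± 9.35% in SJL. The 129 libraries (15.2 to 35.7%) overlapped with the lowest of each other strain, since B6 began at 33.3%, SJL at 30.4% and SWR at 35.0%.

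Slfn5, a long member that is found in the nucleus and is induced by interferon, differed least between B6 and 129. Its counts were 32.1 to 111 in 129 (median 53.8), 85.6 to 185 in B6 (136), 69.4 to 163 in SJL (102) and 83.3 to 139.5 in SWR (98.9). Most 129 mice lay below the mice of the other strains, and the groups overlapped through the highest 129 mice. The LFC was 1.18 ± 0.218 for B6 over 129 (FDR = 3.06e-05), 0.89 ± 0.218 for SJL over 129 (FDR = 0.00142) and 0.81 ± 0.219 for SWR over 129 (FDR = 0.0032). The LFCs against B6 were -0.29 for SJL and -0.37 for SWR and did not pass (FDR = 0.259 and 0.153).

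**Figure D2:**
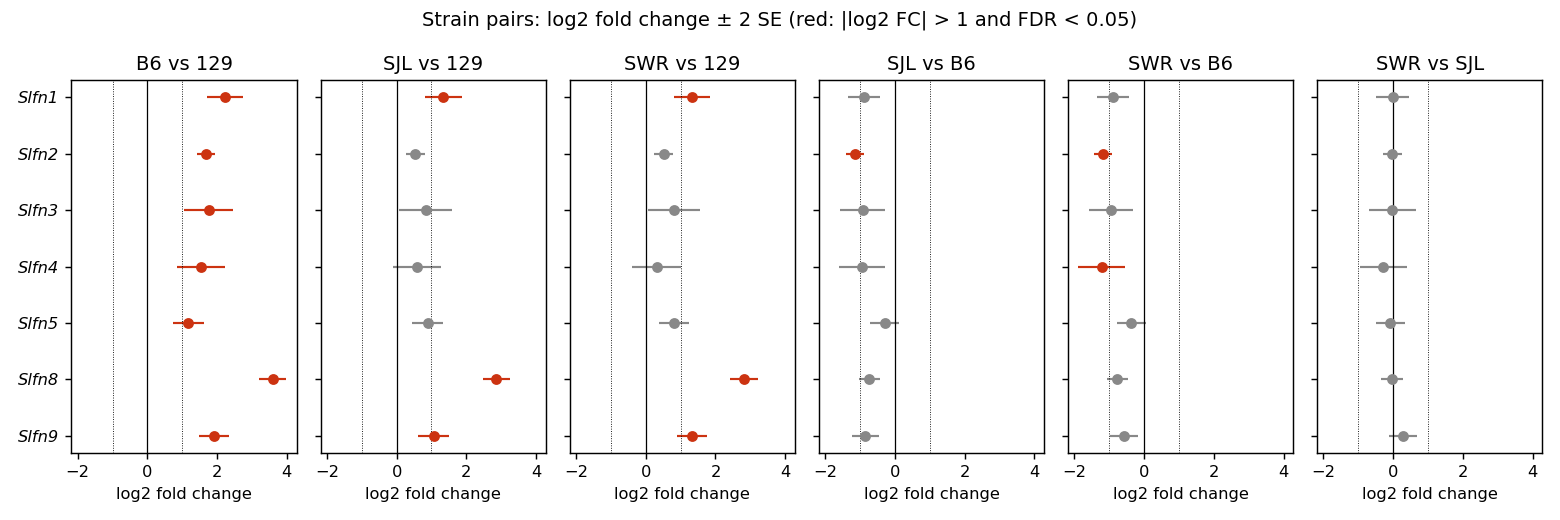
LFC (x axis, first strain over second) of each Schlafen gene in the 6 strain pairs, with bars of 2 SE either side and dotted lines at LFC of -1 and 1. All 7 points of B6 vs 129 are past both limits (red), and all 7 of SWR vs SJL lie between -0.28 and 0.27.

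Counted over pairs, 3 genes (Slfn1, Slfn8 and Slfn9) were higher in SJL than in 129, where 5.61% of all genes were, and the same 3 genes were higher in SWR than in 129, where 4.62% were. The median LFC of the 7 genes was 0.89 for SJL and 0.81 for SWR, against -0.01 over all genes in both pairs. Slfn2 was lower in SJL than in B6 (5.33% of all genes were lower), and Slfn2 and Slfn4 were lower in SWR than in B6 (5.53%). Comparisons that share a strain share its libraries and are not independent of each other. Between SWR and SJL, strains of the same Swiss origin, 0 of 7 genes were called, while 4.5% of all genes were. At any fold, 5 genes passed the FDR in SJL against 129 (18.9% of all genes), 5 in SWR against 129 (19.9%), 6 in SJL against B6 (23.4% lower) and 6 in SWR against B6 (21.1%). Between SWR and SJL, 0 members had an unadjusted p under 0.05 in edgeR, and the widest interval of 2 SE either side of an LFC was that of Slfn4, from -0.96 to 0.39. For 6 of the 7 genes the order by mean was B6, SJL, SWR and 129. SWR was above SJL for Slfn9, and SJL and SWR, as neighbours in the order, did not differ beyond their spread for any gene.

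No difference between the sexes was detected in the family. Between males and females of all strains 0 of 7 genes were called (edgeR), beside 0.0381% of all genes, and 0 had an unadjusted p under 0.05, where 8.97% of all genes did. LFCs of males over females ranged from -0.13 (Slfn1, 20.2 against 23.4 as mean normalized counts) to 0.15 (Slfn3, 6.06 against 5.51). Within a strain, 0 of 28 comparisons were called, beside 0.0381% of all genes in 129, 0.0544% in both B6 and SJL and 0.0816% in SWR. The lowest FDR in 129 was that of Slfn5 (mean of 77.4 in males and 41.9 in females, LFC = 0.89 ± 0.294, FDR = 0.477 by edgeR). The interaction of sex and strain called 0 of 7 genes, with FDRs of 0.497 to 0.993, beside 0.0163% of all genes. The lowest was that of Slfn5. When each sex was tested alone, Slfn3 did not pass the filter, and 6 of the other 6 genes were called between B6 and 129 in females but 4 in males. In males, Slfn4 (LFC = 1.03, FDR = 0.0728) and Slfn5 (LFC = 0.74, FDR = 0.0292) were not called. The share of all genes called in each sex alone was not counted.

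Relatives of the family were low in this tissue. Slfn10-ps, a transcribed pseudogene within the cluster, was higher in B6 (17.6) than in 129 (6.4) as a mean normalized count (LFC = 1.36 ± 0.359, FDR = 0.00181). Slfn14, whose product is known from platelets and immature red blood cells, had 0 to 3 reads in a library, as had Slfn5os, which is antisense to Slfn5. Slfnl1, a Schlafen-like gene on chromosome 4, had 1 to 13 reads, and these 3 genes did not pass the filter.

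Other genes near the cluster were mixed. Of 60 genes within 500 kb of the span, 20 were tested, and their median LFC of B6 over 129 was -0.01. Between B6 and 129, 5 of the 20 were called higher in B6 (8.72% of all genes) and 1 lower (2.4%). In at least 1 pair 7 were called, beside 19.8% of all genes. AA465934, a non-coding transcript, was lower in B6 than in 129 (29.98 against 94.4 as mean normalized counts, LFC = -1.65 ± 0.164, FDR = 2.98e-10) and also lower in SJL (LFC = -1.56) and SWR (LFC = -1.89), opposite to the Schlafen genes. Wfdc17 was higher in B6 (19.7) than in 129 (2.17), with an LFC of 3.0 ± 0.375 (FDR = 3.85e-08), and was also higher in SJL (LFC = 3.0) and SWR (LFC = 2.71) than in 129. The chemokine genes Ccl6 (LFC = 1.62 ± 0.390, FDR = 0.000745) and Ccl9 (LFC = 1.18 ± 0.490, FDR = 0.0423) and the non-coding AI662270 (LFC = 1.46 ± 0.449, FDR = 0.00686) were higher in B6 than in 129. Rasl10b was lower in SWR than in B6 (LFC = -1.34 ± 0.488, FDR = 0.0269), and Slfn10-ps was the seventh.

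Genes of the interferon pathway were counted beside the Schlafen genes. The 36 listed interferon-stimulated genes, all tested, had a median LFC of B6 over 129 of 1.11. Of these, 18 were higher in B6 (8.72% of all genes) and 0 were lower (2.4%). They included Oasl2, a member of the oligoadenylate synthetase family (mean of 1201 in B6 and 234 in 129, LFC = 2.35 ± 0.147, FDR = 2.51e-15), and Bst2, which encodes the antiviral protein tetherin (344 and 70.3, LFC = 2.28 ± 0.155, FDR = 2.53e-14). Ifit3 fell by an LFC of 2.34 in SWR against B6 (67.7 and 338 as means, SE 0.198, FDR = 6.67e-12) and by 1.52 against SJL (FDR = 1.96e-07), and SWR was not above 129 (67.7 and 86.8). In SJL and SWR, 7 and 6 of the interferon-stimulated genes were higher than in 129 (5.61% and 4.62% of all genes). In each, 10 were lower than in B6 (5.33% and 5.53%). Of 18 genes for interferon receptors and signalling, 3 were higher in B6 than in 129 (8.72% of all genes) and 1 was lower (2.4%). Their median LFC was 0.04. Usp18, a negative regulator of interferon signalling that is itself induced by it, rose (LFC = 2.5 ± 0.237, FDR = 9.98e-11), as did the transcription factor Irf7 (LFC = 1.35 ± 0.250, FDR = 3.25e-05), and Socs3, a suppressor of cytokine signalling, fell (LFC = -1.35 ± 0.165, FDR = 2.55e-08).

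Macrophage and monocyte markers were higher in B6 than in 129, as were the Schlafen genes. Many markers of lymphocytes, natural killer cells and neutrophils did not pass the filter. The T lymphocyte and platelet sums of all B6 libraries also exceeded those of all 129 libraries. The sums of B lymphocyte, natural killer cell, neutrophil and red blood cell markers overlapped between B6 and 129. The 11 macrophage and monocyte markers listed had a median LFC of 1.34. Of these, 7 were higher in B6 than in 129 (8.72% of all genes) and 0 lower (2.4%). Among the 7 were C1qa (253 and 67.6 as mean normalized counts, LFC = 1.90 ± 0.131) and C1qc (LFC = 1.83 ± 0.146). Aif1 was higher in SWR than in 129 (LFC = 1.85 ± 0.171). The summed normalized count of these markers was 693 to 1042 in 129, 1612 to 2302 in B6, 967 to 1357 in SWR and 1450 to 1979 in SJL. Only 2 of 10 T lymphocyte markers (Cd4 called, 24.2 in B6 and 5.92 in 129), 3 of 6 B lymphocyte markers, 3 of 9 neutrophil markers and 0 of 6 natural killer cell markers passed the filter. Other called markers in these lists included Cd79b (7.54 in SWR and 2.79 in 129) and S100a8 (36.3 in B6 and 10.1 in 129). The platelet markers summed to 18.7 to 47.7 in 129 and 54.1 to 69.6 in B6. The T lymphocyte markers summed to 21 to 39.5 in 129 and 40.1 to 92.2 in B6. The B lymphocyte markers summed to 26.2 to 65.5 and 46.7 to 105, and the natural killer cell markers to 0 to 16.8 and 8.53 to 39.4. Neutrophil markers summed to 2482 to 39249 in 129 and 2190 to 54292 in B6, almost all of it Ltf, a lactoferrin gene that glands also express, and Mpo and Elane were at 0 in every 129 library. The highest neutrophil sums were those of B6 female replicate 1 and 129 male replicate 1. None of the 5 endothelial markers or of the 8 tested markers of vomeronasal sensory neurons was called between B6 and 129 (11.1% of all genes). Their median LFCs were 0.60 and -0.33. Markers of platelets, red blood cells and the olfactory neurons of the main epithelium were also counted. Of these, 1 of 3, 1 of 5 and 2 of 6 tested were called higher in B6 than in 129 (8.72% of all genes). They were Pf4 (LFC = 1.86 ± 0.276), Hbb-bt (LFC = 1.14 ± 0.359), Stoml3 (LFC = 2.27 ± 0.520) and Gnal (LFC = 1.59 ± 0.409). Others in these lists ran differently. Cnga4, an olfactory channel subunit, was at 704 in B6 and 919 in 129 (LFC = -0.38 ± 0.0633, FDR = 5.93e-06), and was lower in SWR than in SJL (LFC = -1.09). The alpha globin gene Hba-a1 was at 133 in SWR, 119 in SJL, 72.1 in B6 and 50.8 in 129. Its near copy Hba-a2, whose reads may be split with it, was at 27.2 in B6 and 21.5 in 129 but at 0 in every SJL library and 0.111 in SWR. How much of the Schlafen values came with these cells was not tested.

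**Figure D3:**
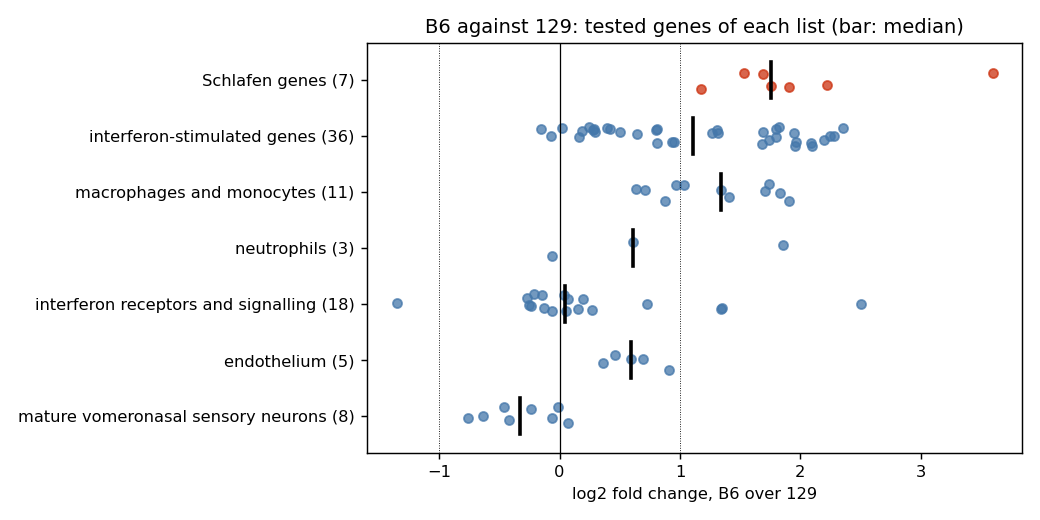
LFC of B6 over 129 (x axis) for the tested genes of each list (y axis, number of genes in brackets), 1 point a gene, with a black bar at the median and dotted lines at LFC of -1 and 1. The 7 Schlafen genes lie from 1.18 to 3.60, the macrophage and monocyte markers have a median of 1.34 and the sensory neuron markers one of -0.33.

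To see what remained of each difference beside such markers, the mean log2 level of the macrophage, lymphocyte, natural killer cell and neutrophil markers was added as a covariate. It held 44 gene identifiers, the 42 of the lists and the pair that carry the symbol Itgam, which the list counts leave out. This level was itself tied to strain, with 2.36 to 3.10 in 129, 3.37 to 3.97 in B6, 2.85 to 3.99 in SWR and 3.07 to 3.78 in SJL, so that in this fit the strains and the marker level cannot be told apart in full. With the covariate, 4 of 7 genes were called between B6 and 129, namely Slfn8 (LFC = 3.01, FDR = 2.8e-09), Slfn9 (1.30, FDR = 0.00684), Slfn1 (1.17, FDR = 0.0324) and Slfn2 (1.16, FDR = 0.000133). The LFC of Slfn4 went from 1.53 to 0.17 (FDR = 0.864), that of Slfn5 from 1.18 to 0.26 (FDR = 0.63) and that of Slfn3 from 1.76 to 0.84 (FDR = 0.334). Slfn8 was the only member called in SJL and SWR against 129 with the covariate, with LFCs of 2.40 (FDR = 1.84e-08) and 2.47 (FDR = 4.83e-10), and Slfn9 in SWR against 129 (LFC = 0.98, FDR = 0.00448) missed the limit on FC. Whether cell numbers account for any of these differences was not tested. With the background reads as covariate, in contrast, 6 of 7 genes were called between B6 and 129, and the LFC of Slfn5 was 0.96. The share of all genes called with either covariate was not counted. A fall in the number of members called can therefore not be read as particular to them.

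**Figure D4:**
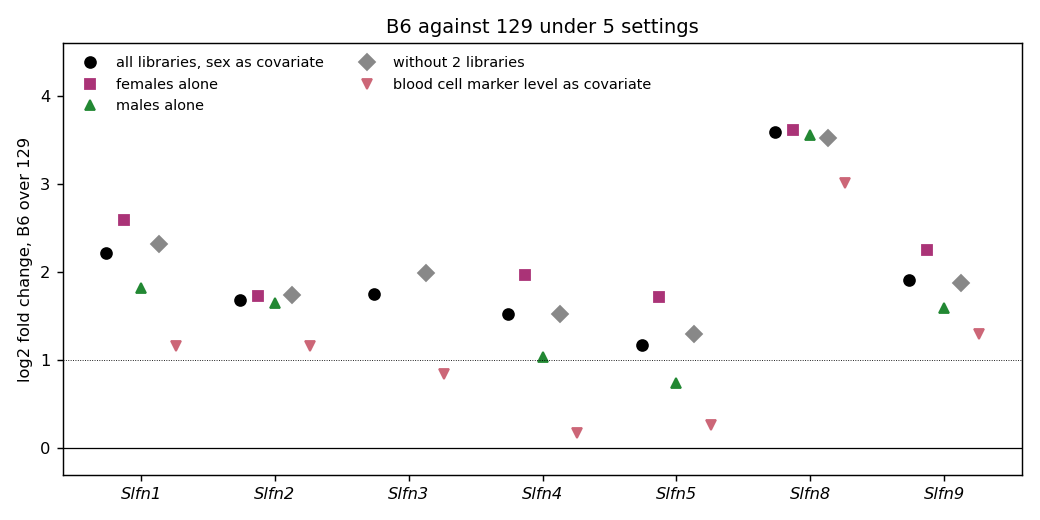
LFC of B6 over 129 (y axis) of each Schlafen gene under 5 settings (symbols), with a dotted line at an LFC of 1; Slfn3 has no value for a single sex. Slfn8 lies between 3.01 and 3.62 under all 5 settings, whereas Slfn4 lies at 0.17 and Slfn5 at 0.26 with the blood cell marker level as covariate.

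Within strains, mice high in 1 member tended to be high in others. Over the 32 libraries, with log2(normalized count + 1) centred by strain, Pearson's r of the 21 member pairs ranged from 0.10 (Slfn3 and Slfn9) to 0.74 (Slfn2 and Slfn4), with a median of 0.41. Without the 2 libraries that stand apart the median was 0.31. The near copies were not the most alike, with r = 0.30 for Slfn8 and Slfn9 and 0.39 for Slfn3 and Slfn4. These values are descriptions, since libraries share depth and dissection with all their genes, and the low counts of Slfn3 and of Slfn8 in 129 limit r.

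Genes whose pattern within strains was most like that of a member differed from member to member. Nearest to Slfn2 were Irf7 (r = 0.77), Apol9a (0.77) and Rtp4 (0.76), all known as interferon-induced. Nearest to Slfn4 were Csf3r (0.85), the receptor for granulocyte colony-stimulating factor, Il1b (0.85), interleukin 1 beta, and Cxcr2 (0.84), a chemokine receptor of neutrophils. Slfn5 was most like Kitl (0.80), Lama2 (0.80) and Itgb2 (0.80), and its r with the summed endothelial markers was 0.77. Among the genes most like Slfn9 were Top2a (0.77), a topoisomerase of dividing cells, and Neurod1 (0.75), a transcription factor of immature neurons. Slfn1 was most like Snx20 (0.75), Lilrb4a (0.74) and Slc34a2 (0.73), Slfn3 like Sla (0.71), Evc (0.70) and Fli1 (0.69), and Slfn8 like Gm20475 (0.67), Cenpe (0.66) and Susd5 (0.65). With the summed interferon-stimulated genes, r was 0.75 for Slfn2, 0.68 for Slfn9, 0.57 for Slfn4, 0.52 for Slfn5, 0.50 for Slfn1, 0.42 for Slfn8 and 0.16 for Slfn3. All of these r values include the 2 libraries that stand apart. The map of correlations sets the values with some of the lists side by side and leaves out that of interferon receptors and signalling.

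**Figure D5:**
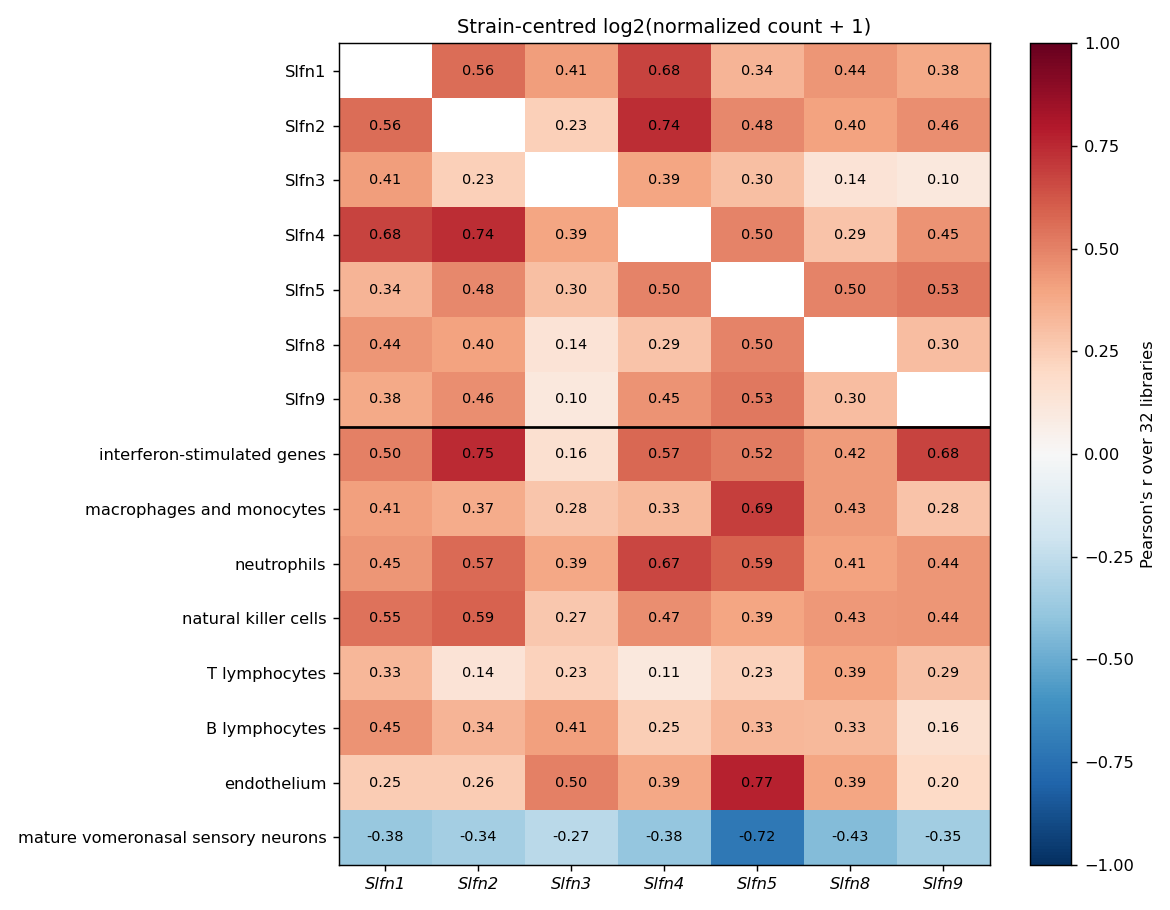
Pearson's r over 32 libraries of strain-centred log2(normalized count + 1), between Schlafen genes (upper block) and between each gene (columns) and the summed level of a marker or gene list (lower block), coloured from -1 (blue) to 1 (red). Slfn2 has its highest list value with interferon-stimulated genes (0.75), Slfn4 with neutrophil markers (0.67) and Slfn5 with endothelial markers (0.77), and all 7 genes are negative with sensory neuron markers (-0.27 to -0.72). The neutrophil sum is almost all Ltf, a gene that glands also express.

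Few stretches of the transcripts were shared between copies. Of the stretches of the length of a read that tile the annotated transcripts, 0% of those of Slfn1, Slfn2 and Slfn4 occurred in a transcript of another gene, as did 2.02% for Slfn3 (shared with Gm11427), 0.923% for Slfn8 and 2.40% for Slfn9 (with each other and with Slfn10-ps). For Slfn5 the share was 5.81%, all of it with its antisense partner Slfn5os, which the stranded counting sets apart. With the counts of the close copies added, Slfn8 plus Slfn9 gave an LFC of B6 over 129 of 2.45 ± 0.173 (FDR = 7.04e-14) and Slfn3 plus Slfn4 one of 1.54 ± 0.330 (FDR = 0.000199), and all 5 units were called. All reads were placed on the B6 genome, so that reads of 129, SJL and SWR with sequence differences could be lost. Over all genes, 1602 were called higher in B6 than in 129 and 442 lower. At FDR < 0.05 and any fold, 5013 were higher in B6 and 4689 lower. The share of lost reads in the Schlafen values was not tested.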

How the data were processed

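RNA of the VNO neuroepithelium of 32 mice of 42 days (8 groups of strain and sex, 4 mice in each) was sequenced as stranded, ribosome-depleted libraries. According to their methods and processing notes, the authors trimmed reads with Trim Galore, aligned them to GRCm38 (mm10) with STAR and deposited stranded counts of uniquely placed reads per Ensembl gene. The deposited normalized signal, called normalized count here, is that count after the authors scaled each library by its DESeq2 size factor.

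From the counts, 18382 genes passed the filterByExpr limits and were tested in edgeR 4.0.16 (R 4.3.3) by the quasi-likelihood test with TMM scaling, on strain and sex over all 32 libraries. P-values were adjusted by the Benjamini-Hochberg method over all tested genes (FDR). A gene was called at an LFC past 1 in either direction and FDR < 0.05 (0.01 between the sexes over all strains). Sex within a strain and the interaction, called on FDR alone, came from a model of the 8 group means. TPM was computed with exon lengths of GENCODE M21 (GRCm38). Each script that tests genes was tested on simulated data. Libraries held 5106398 to 18640871 reads on genes. No 2 libraries of a group agreed within sampling noise (chi-square per degree of freedom of 3.01 to 54.2 over 48 pairs).

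Every Schlafen gene was named in each strain comparison. Of other genes, the text names relatives of the family, called neighbours within 500 kb, up to 3 called genes of each list with the largest LFC and the 3 genes with the highest r to each member, a few of which are not reported here. The members and lists were chosen with earlier results of these data known. Alternatives were DESeq2 1.42.0, its size factors, no filter, the lane as a block, other limits, each sex alone, added covariates, summed copies and leaving out libraries. Replicate numbers are lane numbers.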

Additional observations from a re-analysis of the deposited data

Results flagged for a closer look

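In 56 groups of 4 mice (7 genes in 8 groups of strain and sex), the highest or lowest mouse was tested for its gap to the nearest mouse as a share of the range of the group (Dixon's test at the 95% level), which chance exceeds in about 1 group in 20. In 3 groups a single mouse stood above the other 3. Slfn8 was at 111 in B6 female replicate 1, a library also set apart on the fourth principal component, against 68.0 to 70.2 in the other B6 females. Slfn2 was at 112 in SJL female replicate 1, against 79.3 to 80.1 in the other SJL females. Slfn9 was at 113 in SJL male replicate 1, against 38.4 to 43.8 in the other SJL males, and this mouse set the upper end of SJL for Slfn9. All 3 mice were of replicate 1 and so of lane 1, as were both libraries that stand apart. The highest sums of the family in 129 (416), B6 (1129) and SJL (643) were also of replicate 1, and that of SWR (495) was of replicate 3. Low values fell in replicate 1 as well, namely the lowest sum of 129 (135, female) and the lowest Slfn8 of B6 (50.3, male). The lowest sums of B6 (586), SJL (310.3) and SWR (321) were of replicates 2, 3 and 4. Whether the lane plays a part was not tested.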

How the results depend on the processing

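All 7 genes were called between B6 and 129 whichever single library was left out, and 0 were called between SWR and SJL or for sex. DESeq2, its size factors, no filter, FDR < 0.01 and the lane as a replicate block changed no call of a member. The block left 7 genes called between B6 and 129. No pairing by lane was seen in most libraries. Over 112 pairs of same-lane libraries of different groups the median r was -0.013, and 9 of 32 libraries correlated best with their own lane. The highest r was 0.48, and 22 of these pairs exceeded 0.1. A median over pairs cannot show whether a few libraries share an effect of their lane. Of 1794 LFCs of a member in a pair under another setting, 1738 stayed on the same side of the limits, 37 passed them newly and 19 no longer passed. Of these LFCs, 38 turned sign, of which 0 were called with or without the change of setting: 36 belonged to SWR against SJL and 2 to Slfn4, which went to -0.52 in SJL and -0.51 in SWR against 129 with the blood cell marker level as covariate.

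Without a limit on fold, 5 genes differed in SJL and 5 in SWR against 129, and 6 in SJL and 6 in SWR against B6. In females alone, 4 genes differed between SJL and B6. In males alone, 4 genes were called in any pair, 4 between B6 and 129 and 1 between SWR and B6. With the blood cell marker level as covariate the counts were 4 in any pair, 4 for B6 and 1 each for SJL and SWR against 129, and 0 between SWR and B6. Without the pair of libraries that stand apart, an alternative chosen after seeing the data like the background covariate and the summed copies, 5 genes were called between SJL and 129 and 1 between SWR and B6. With 1 library left out, counts ranged from 2 to 5 for SJL against 129 (5 without 129 male replicate 1), from 1 to 3 for SJL against B6 (3 without SJL male or female replicate 1, 2 without B6 male replicate 1, 2 or 3, B6 female replicate 2 or SJL male replicate 4), from 1 to 3 for SWR against B6 (1 without B6 female replicate 1) and from 3 to 4 for SWR against 129. Within 250 kb of the cluster, 4 neighbours were called. The cause of these changes was not tested, and the share of all genes called was not counted in these other fits. The planned grouping of copies by protein identity was not run, and coding sequence identity was used in its place. Reads limit Slfn3 (1 to 15) and, in 129, Slfn8 (5 to 10) most.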
